A study of Mus musculus with 2 samples.

Results

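The RNAs described here are 5 long noncoding RNAs (lncRNAs), *Dlx6os1*, *Sox2ot*, *Rmst*, *Miat* and *Malat1*, in 2 single-cell RNA libraries of the embryonic mouse telencephalon. They were chosen by symbol: each is a row of the deposited matrices, 5 of the 32286 features of the telencephalic vesicle library and 4 of the 28001 features of the septal explant library, whose gene list has no row with the symbol *Sox2ot*. The vesicle library came from 3 wild-type C57BL/6J embryos of 2 litters, labelled E12 and aged E11.5 to E12 per the study's methods. It was made with the 10x Genomics 3′ kit v3.1 and an input of about 20000 cells. The septal library was labelled wild-type C57BL/6J, E11.5 and E12.5, and per the study's methods pooled explants around the septum of 8 E11.5 PGKCre;Rosa26YFP embryos (2 litters) and 4 E12.5 Dbx1Cre;Rosa26tdTomato embryos (2 litters), with kit v2 and an input of about 10000 cells. PGKCre recombines in every tissue, whereas Dbx1Cre recombines in cells that expressed *Dbx1* and in their progeny. Embryos were pooled within each library, so cells of 1 library are not replicates of a condition and no p-value is given. The intervals below are 95% intervals that cover the counting error of unique molecular identifiers (UMIs) or cells only. The kits, the gene lists and the age ranges differed between the libraries, so that levels are set side by side and never compared between them.

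lncRNAs are transcripts without a long open reading frame, and many are spliced and polyadenylated. A 3′ library primed on poly(A) captures the polyadenylated ones like mRNAs. *Dlx6os1* (also Evf2) is transcribed across the enhancers between *Dlx5* and *Dlx6*, which encode homeobox factors of forebrain GABAergic neurons, and is known to act on these neighbours. *Sox2ot* is the overlapping transcript in whose span lies *Sox2*, the SOX factor that maintains neural progenitors, and *Rmst* is known as a nuclear lncRNA that binds SOX2 during neurogenesis. *Miat* (also Gomafu) is a nuclear lncRNA of newborn neurons that carries repeats bound by the splicing factor SF1. *Malat1* is an abundant nuclear-speckle RNA that binds SR splicing factors. In this tissue, apical progenitors (APs) line the ventricle and give rise, directly or through basal progenitors (BPs), to glutamatergic neurons in the pallium and GABAergic neurons in the subpallium. The septum, the cortical hem and the choroid plexus lie at or near the midline.

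The coordinates below are of GRCm38 with the GENCODE vM21 annotation. *Dlx6os1* (ENSMUSG00000090063, antisense, 3 transcripts of up to 3 exons) lies on the minus strand at chr6:6820189-6871592, and *Dlx6* lies inside that span on the opposite strand at chr6:6863334-6868568. *Sox2ot* (ENSMUSG00000105265, processed transcript, 18 transcripts of up to 5 exons) covers 578350 bases on the plus strand, chr3:34104270-34682619, and holds *Sox2* (chr3:34650405-34652461) on the same strand. *Rmst* (lincRNA, 14 transcripts of up to 13 exons) lies on the minus strand at chr10:92071037-92165170. The vesicle library lists it as ENSMUSG00000112117, whereas the septal library lists it as ENSMUSG00000097348, an identifier that the annotation used here does not hold. *Miat* (ENSMUSG00000097767, lincRNA, 6 transcripts of up to 7 exons) lies on the minus strand at chr5:112213228-112229395, overlapped on the opposite strand by *Gm26953*, which both gene lists hold. *Malat1* (ENSMUSG00000092341, lincRNA, 4 transcripts of up to 2 exons) lies on the minus strand at chr19:5795690-5802672. Both Cell Ranger versions count reads on the sense strand. Version 7.1.0, used for the vesicle, also counts intronic reads by default, whereas version 2.1.1, used for septal explants, does not, and whether the defaults were kept is not given in the sources used here. Vesicle levels of genes with long introns, among them *Sox2ot* and *Rmst*, may therefore include intronic reads. *Sox2* and *Sox2ot* lie on 1 strand, so that reads in their shared span cannot be told apart by strand.

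Because 3′ libraries read the end of a transcript, the last 60 bases of the longest annotated transcript of each gene are shown, 5′ to 3′ on the transcript's strand, with the polyadenylation signals AATAAA or ATTAAA in capitals (GENCODE vM21 transcripts).
Dlx6os1: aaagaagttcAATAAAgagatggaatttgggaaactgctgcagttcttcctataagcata
Sox2ot: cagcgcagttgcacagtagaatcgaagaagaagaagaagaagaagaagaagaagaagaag
Rmst: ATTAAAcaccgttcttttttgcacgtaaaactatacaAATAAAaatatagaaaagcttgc
Miat: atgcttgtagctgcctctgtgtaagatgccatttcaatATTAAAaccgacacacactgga
Malat1: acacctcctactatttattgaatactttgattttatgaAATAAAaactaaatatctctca
*Rmst* held 2 signals, *Dlx6os1*, *Miat* and *Malat1* held 1 each, and *Sox2ot* held 0; 43.7% of the 10050 longest lncRNA transcripts of the annotation held at least 1 in this window. A signal is a match of letters and no measured cleavage site.

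Further stretches are shown for *Miat*, for its repeats, and for *Malat1*, for its run of A. The longest *Miat* transcript (9163 bases) held TACTAAC, the branch-point-like repeat, 6 times on its sense strand, or 0.655 times per kilobase, and the longest transcripts of the other 4 lncRNAs held it 0 times. Of the 10050 lncRNA transcripts, 3.72% held the motif, and 1.47% held it as densely as *Miat* or more so. The 240 bases from transcript position 4833 to 5072 hold 3 of the repeats, in capitals. The *Malat1* stretch spans positions 6654 to 6713 and holds its longest run of A (12 bases), with the most A-rich 20 bases in capitals. These lie 290 bases before the annotated end, and an oligo(dT) primer could anneal there. Whether the RNA in these cells reached the annotated end, and which site was primed, was not measured.
Miat: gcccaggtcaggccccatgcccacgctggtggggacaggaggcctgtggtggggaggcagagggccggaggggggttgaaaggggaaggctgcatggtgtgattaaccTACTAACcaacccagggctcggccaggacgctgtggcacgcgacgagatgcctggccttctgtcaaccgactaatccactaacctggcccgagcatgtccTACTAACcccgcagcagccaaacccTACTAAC
Malat1: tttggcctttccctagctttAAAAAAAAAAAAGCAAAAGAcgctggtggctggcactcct

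After filtering, 5384 septal cells (median 12868.5 UMIs) and 11758 vesicle cells (median 9058.5 UMIs) formed 31 and 29 clusters, found without the 5 lncRNAs and their genomic neighbours. The libraries shared 1 barcode. Clusters were named "-like" from marker genes, and 2 septal clusters (287 cells) and 3 vesicle clusters (1186 cells) stayed unnamed. A class level is given in CPM, the counts of the gene per 1000000 UMIs of the class. Totals ran from 1311 *Dlx6os1* UMIs to 378828 *Malat1* UMIs in the septal library, and from 7966 to 621607 in the vesicle library. Non-neural cells served as a reference for free RNA: erythroid-like and mesenchyme-like cells in both libraries, and 63 macrophage-like and 28 endothelial-like cells (medians of 16025 and 30528.5 UMIs) in the vesicle. For shares of cells, each cell was also thinned to 8000 UMIs (septal) or 3500 UMIs (vesicle), which left out 511 and 1145 shallower cells.

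**Figure D1:**
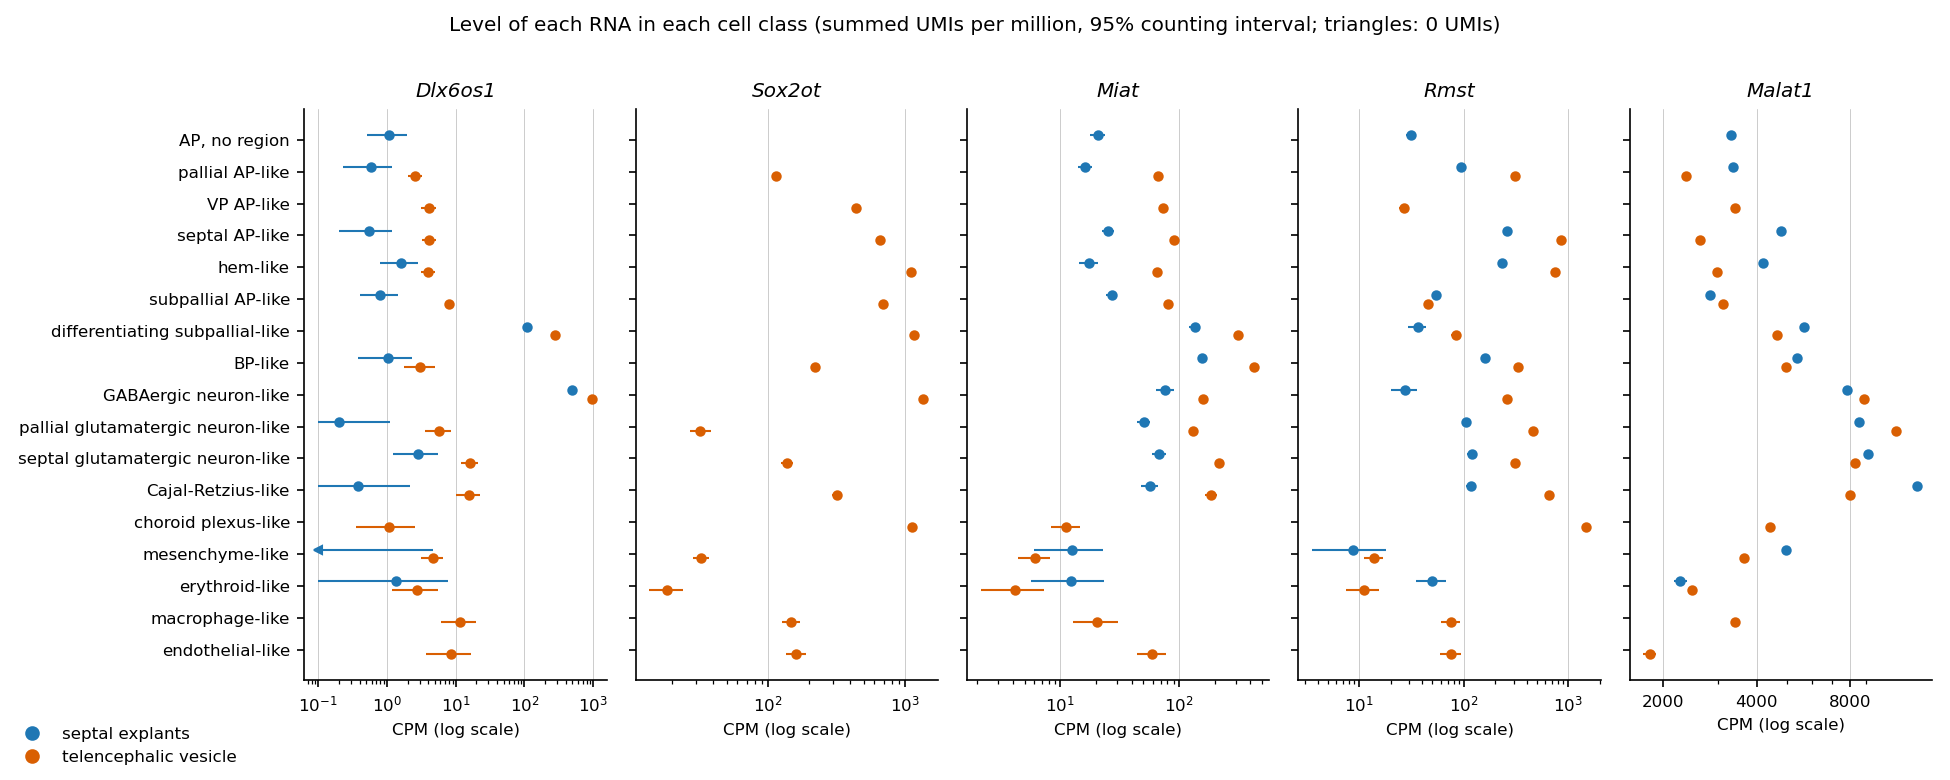
Level of each lncRNA (panels, CPM on a log axis) in each class (rows), with 95% counting intervals, for the septal explants (blue) and the telencephalic vesicle (orange); a triangle marks 0 UMIs. *Dlx6os1* stood at 488 and 971 CPM in GABAergic-like neurons and under 16 CPM in every named class but those and differentiating subpallial-like cells, whereas *Malat1* stayed between 1810 and 13098 CPM in every class.

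*Dlx6os1* was the most restricted of the 5 RNAs in both libraries. GABAergic-like neurons, the 167 septal cells led by *Gad2*, *Dlx5*, *Sp9* and *Slc32a1*, held 931 of its UMIs, 488 CPM (457 to 520). In the vesicle, 779 GABAergic-like neurons held 5590 UMIs, 971 CPM (946 to 997). These neurons were 3.1% and 6.63% of the cells and carried 71.0% and 70.2% of all *Dlx6os1* UMIs. Differentiating subpallial-like cells, which still carried AP markers of the subpallium but had moved toward neuronal genes, held a further 23.3% and 19.3%, at 109 CPM (97.2 to 122; 258 cells) and 278 CPM (265 to 293; 566 cells). No other named class lay above 16 CPM.

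A *Dlx6os1* UMI was seen in 95.8% of septal and 93.1% of vesicle GABAergic-like neurons, and in 95.3% and 85.5% after thinning. In differentiating subpallial-like cells the thinned shares were 27.2% and 27.8%. Among all APs they were 0.634% and 0.850%, against 3.85% of septal erythroid-like cells (1 of 26 cells, median 29045.5 UMIs before thinning) and 0.838% of vesicle erythroid-like (median 5432 UMIs), 1.82% of macrophage-like and 7.14% of endothelial-like cells. The shares in APs were thus at or near the free-RNA reference. Single cells reached 21 UMIs in the septal and 55 in the vesicle GABAergic-like neurons. A few vesicle cells named subpallial AP-like held up to 42 UMIs, while 2.08% of that class had any.

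The comparison of neurons with APs asks which lncRNAs mark the postmitotic state. *Dlx6os1* was 76.4 CPM in 994 septal neurons and 0.851 CPM in 3322 APs, a log2 ratio of 6.49 (6.06 to 6.95). In the vesicle it was 391 CPM in 1850 neurons and 5.01 CPM in 6310 APs, a log2 ratio of 6.29 (6.17 to 6.41). Between GABAergic-like and glutamatergic-like neurons (both neuron types outside the Cajal-Retzius-like cells), *Dlx6os1* was 488 against 1.15 CPM in the septal library, 931 against 9 UMIs and a log2 ratio of 8.72 (7.79 to 9.86). It was 971 against 10.1 CPM in the vesicle, a log2 ratio of 6.58 (6.25 to 6.94). Of the vesicle glutamatergic-like clusters, 67 cells led by *Onecut2* held 66.5 CPM and the others 5.71 and 2.46 CPM. A septal cluster of 142 cells led by *Onecut2* and *Isl1* stayed unnamed and was on neither side of the septal ratio. Other cell filters and clusterings gave neuron to AP log2 ratios down to 4.30 in septal explants and 5.53 in the vesicle, and a GABAergic to glutamatergic ratio down to 5.19 in the vesicle. The background in septal explants was 17.4% of the 12699 genes with at least 50 UMIs at least 2-fold higher in neurons than in APs and 17% at least 2-fold lower. In the vesicle, 16.4% of 15824 genes were higher and 19.1% lower. For GABAergic-like over glutamatergic-like neurons, 2.81% of 9324 septal genes were at least 2-fold higher and 6.71% lower, and in the vesicle 4.32% of 11185 genes were higher and 5.04% lower.

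Of the 4 lncRNAs measured in septal explants, 3 (*Dlx6os1*, *Miat* and *Malat1*) were at least 2-fold higher in neurons than in APs and 0 were 2-fold lower. The same 3 of 5 were 2-fold higher in vesicle neurons, again with 0 lower, but *Miat* fell short of 2-fold there with all barcodes (log2 ratio 0.90) and with doublets kept (0.93). Between neuron types, *Dlx6os1* was 2-fold higher in septal GABAergic-like neurons and *Rmst* 2-fold lower. In the vesicle, *Dlx6os1* and *Sox2ot* were 2-fold higher and 0 lncRNAs were 2-fold lower.

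**Figure D2:**
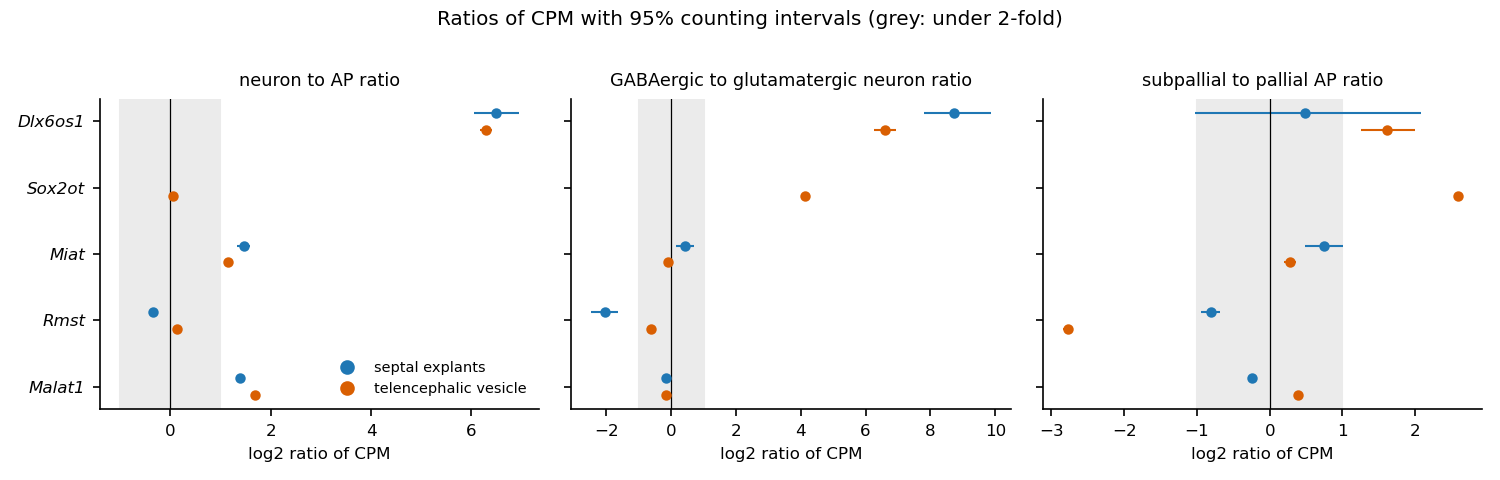
Log2 ratios of CPM (horizontal axis) for each lncRNA in 3 comparisons (panels), with 95% counting intervals, for the septal explants (blue) and the telencephalic vesicle (orange); the grey band marks less than a 2-fold difference. *Dlx6os1* lay at 6.49 and 6.29 for neurons over APs, *Sox2ot* at 4.12 for GABAergic-like over glutamatergic-like neurons, and *Rmst* at -0.81 and -2.77 for subpallial-like over pallial-like APs.

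APs of the subpallium make these GABAergic neurons, yet carried little *Dlx6os1*. In septal explants 915 subpallial AP-like cells held 11 UMIs (0.804 CPM) and 723 pallial AP-like cells held 7 (0.577 CPM), a log2 ratio of 0.48 whose interval spanned 0 (-1.02 to 2.08). In the vesicle, 2688 subpallial AP-like cells held 7.88 CPM and 1115 pallial AP-like cells 2.57 CPM, a log2 ratio of 1.62 (1.25 to 2.0). All vesicle APs were also split by depth into 4 groups of equal cell number. From the shallowest group on, *Dlx6os1* was 2.23, 1.68 and 1.73 CPM, and 6.88 CPM (6.31 to 7.48) in the deepest (median 39067 UMIs). The part of these deep cells in the vesicle AP levels was not tested. From subpallial AP-like to differentiating subpallial-like cells the level was 136-fold higher in septal explants (74.8 to 275) and 35.3-fold higher in the vesicle (31.4 to 39.9). From there to GABAergic-like neurons it was 4.47-fold (3.93 to 5.11) and 3.49-fold (3.30 to 3.69) higher. The septal 136-fold value rests on the 11 UMIs of subpallial AP-like cells and is given for this clustering only. Other clusterings moved the ratio of these AP-like cells to pallial AP-like cells, as given next. With fewer clusters, another seed or doublets kept, the septal log2 ratio of subpallial-like over pallial-like APs was 3.11 to 3.54 for *Dlx6os1*, and the cause was not tested. That of the vesicle was 0.48 with all barcodes, 0.86 with fewer clusters and 0.78 with the lncRNAs kept in clustering, each below a 2-fold difference.

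Subpallial-like cells were ordered in 10 bins of equal cell number by the log2 ratio of neuronal to AP marker UMIs. In septal explants *Dlx6os1* was at most 3.29 CPM in the first 7 bins, then 29.2, 380 and 443 CPM in the last 3. In the vesicle it was at most 32.9 CPM in the first 7 bins, then 397, 1102 and 827 CPM. The level in the ninth vesicle bin thus exceeded that of the most neuronal bin. In pallial-like cells it never exceeded 1.61 CPM in septal explants or 11.4 CPM in the vesicle.

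Its genomic partner *Dlx5* followed the same course. *Dlx5* was 791 CPM in septal GABAergic-like neurons, 261 CPM in differentiating subpallial-like cells and 1.61 CPM in subpallial AP-like cells, and 378, 125 and 2.81 CPM in the vesicle. *Dlx6*, which overlaps *Dlx6os1* on the other strand, was 46.1, 30.0 and 0.0731 CPM, and 59.8, 27.4 and 0.985 CPM. Differentiating subpallial-like cells were split by whether they held a *Dlx6os1* UMI. *Dlx5* was detected in 98.6% of the 72 septal cells with one (at least 92.5%) and in 24.2% of the 186 without (18.2% to 31.0%). In the vesicle, *Dlx5* was detected in 86.2% of 189 cells with one (80.5% to 90.8%) and 14.1% of 377 without (10.7% to 18.0%). *Gad2*, a GABA-synthesising enzyme, was detected in 50% against 3.76% of septal and 57.1% against 15.4% of vesicle cells. Cells with and without *Dlx6os1* had similar median depths in septal explants (9200 and 9496 UMIs) and 9159 against 8208 UMIs in the vesicle. *Dlx1* and *Dlx2*, which switch on earlier in the lineage, were frequent in both kinds of cell, *Dlx1* in 95.8% against 60.2% of septal and 96.8% against 74.8% of vesicle cells. *Dlx6* was detected in 51.4% against 8.60% and 43.4% against 5.04%. In GABAergic-like neurons the order for *Dlx6* was opposite, 30% of 160 septal cells with a *Dlx6os1* UMI against 71.4% of 7 without. In the vesicle it was 30.3% of 725 against 44.4% of 54, and the intervals overlapped in both libraries. *Dlx5* in these neurons was 98.8% against 100% and 90.5% against 64.8%.

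**Figure D3:**
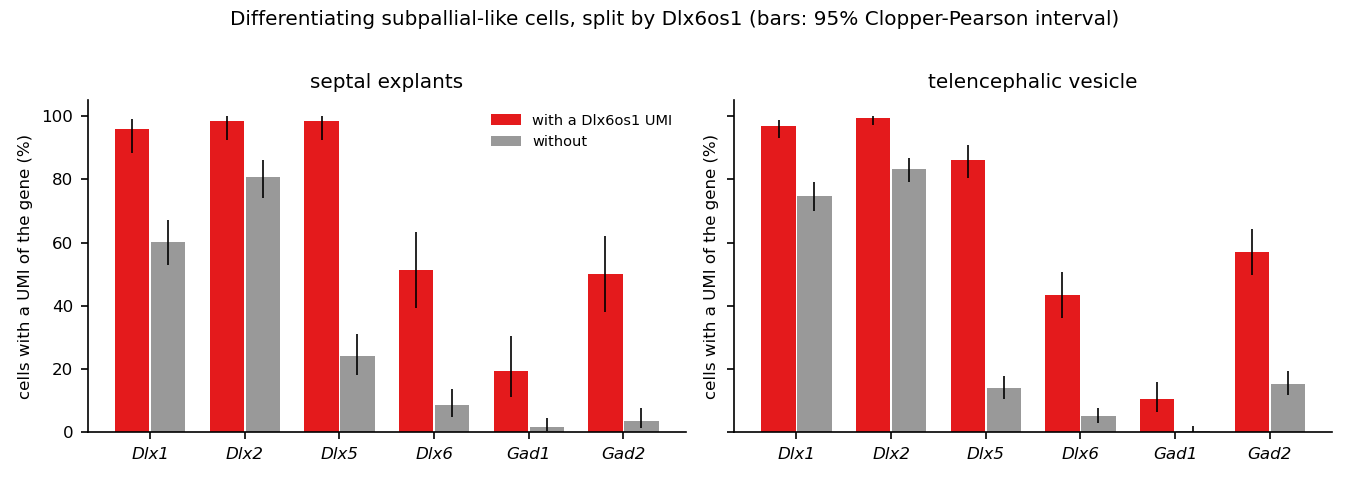
Share of differentiating subpallial-like cells with a UMI of each gene (vertical axis, percent) among cells with a *Dlx6os1* UMI (red) and without (grey), with 95% Clopper-Pearson intervals; left septal explants (72 and 186 cells), right telencephalic vesicle (189 and 377 cells). The gap was widest for *Dlx5*, 98.6% against 24.2% and 86.2% against 14.1%.

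Across the 27 septal neural clusters, *Sp9* (Pearson r = 0.96), *Dlx5* (0.95), *Slc32a1* (0.93), *Gad1* (0.93) and *Dlx1* (0.90) had the patterns most like *Dlx6os1* among 8907 genes. Across the 21 vesicle neural clusters these were *Dlx5* (0.98), *Dlx6* (0.96), *Grik3* (0.96), *Gad2* (0.96) and *Sp9* (0.95) among 11560 genes. Clusters of 1 library share its embryos, its reaction and its sequencing, and *Gad1*, *Gad2*, *Slc32a1*, *Sp9* and *Dlx1* were among the marker genes that named them.

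*Sox2ot*, measured in the vesicle only, differed mainly between regions and between neuron types. It was 612 CPM in neurons and 591 CPM in APs, a log2 ratio of 0.05 (0.02 to 0.08). Neuron types differed widely. GABAergic-like neurons held 1357 CPM (1327 to 1388) and glutamatergic-like neurons 78.0 CPM (71.7 to 84.8), 17.4-fold less (16 to 19) and a log2 difference of 4.12 (4.0 to 4.25). That difference ran from 2.28 to 5.34 over other cell filters and clusterings, and the neuron to AP ratio from -0.42 to 0.17. The glutamatergic-like level was uneven: 67 cells led by *Onecut2* held 507 CPM, and the other glutamatergic-like clusters 32.3 and 39.8 CPM. The 475 pallial glutamatergic-like neurons were lowest of the neural classes at 32.3 CPM (27.0 to 38.3), as low as the 495 mesenchyme-like cells at 32.8 CPM (28.7 to 37.3), and their intervals overlapped.

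Among APs, *Sox2ot* was 115 CPM in pallial AP-like cells, 443 CPM in the 858 cells like those of the ventral pallium (VP), 658 CPM in septal AP-like, 690 CPM in subpallial AP-like and 1117 CPM (1103 to 1132) in hem-like cells. No neighbouring pair of these intervals overlapped. The subpallial-to-pallial log2 ratio was 2.59 (2.54 to 2.64), and the hem-to-pallial ratio was 9.75-fold (9.40 to 10.1). Of 14161 vesicle genes, 6.26% were at least 2-fold higher in subpallial-like than in pallial-like APs and 3.41% at least 2-fold lower; of 10952 septal genes, 4.55% were higher and 2.78% lower. By that measure *Sox2ot* was 2-fold higher, *Dlx6os1* was 2-fold higher and *Rmst* 2-fold lower among the 5 in the vesicle. In septal explants *Dlx6os1*, with 11 and 7 UMIs, had too few for this count, and none of the other lncRNAs passed 2-fold. Other settings gave septal log2 ratios beyond 2-fold, up to 3.54 for *Dlx6os1* (fewer clusters) and down to -1.83 for *Rmst* (another seed). Choroid plexus-like cells held 1131 CPM of *Sox2ot* and BP-like cells 220 CPM.

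After thinning, 75.3% of subpallial AP-like, 83.4% of hem-like and 28.6% of pallial AP-like cells had a *Sox2ot* UMI, against 4.52% of mesenchyme-like and 4.19% of erythroid-like cells. The reference was higher in macrophage-like cells, at 12.7% and 149 CPM (127 to 173), and in endothelial-like cells, at 39.3% and 160 CPM (136 to 188). Both levels exceeded the 115 CPM of pallial AP-like cells, whose *Sox2ot* thus lay between those of the non-neural classes. The larger references, 495 mesenchyme-like and 401 erythroid-like cells, held less, at 32.8 and 18.3 CPM. Before thinning, 22.2% of the 63 macrophage-like cells had a *Sox2ot* UMI. Whether the macrophage-like and endothelial-like levels were free RNA was not tested. The thinned share in pallial glutamatergic-like neurons was 6.03%, within the range of the non-neural classes. Along the subpallial order *Sox2ot* went from 540 CPM in the first bin to 1190, 2037 and 943 CPM in the last 3. Along the pallial order it went from 148 CPM to 64.7, 18.5 and 16.4 CPM. The subpallial bins thus had their highest level in the ninth bin, as *Dlx6os1* did, whereas the most neuronal pallial bins had the lowest.

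The 2 GABAergic-like clusters of the vesicle differed in *Sox2ot*. In the 436 cells whose leading genes included *Isl1* and *Ebf1*, genes of striatal projection neurons, it was 1884 CPM. In the 343 cells led by *Lhx8* and *Lhx6*, genes of the medial ganglionic eminence, it was 664 CPM, a 2.84-fold difference (2.69 to 3.0). *Dlx6os1* was 971 and 972 CPM in the same clusters, a ratio of 1.0 (0.948 to 1.05). *Rmst* had the opposite order to *Sox2ot*, 163 and 383 CPM. *Miat* was 164 and 153 CPM and *Malat1* 8397 and 9457 CPM.

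*Sox2*, the coding gene inside the *Sox2ot* span, was 401 CPM in APs and 71.6 CPM in neurons, a log2 ratio of -2.48 (-2.57 to -2.40), while that of *Sox2ot* was near 0. In GABAergic-like neurons *Sox2* was 111 CPM, lower than the 345 CPM of pallial AP-like cells, and *Sox2ot* had the opposite order, 1357 against 115 CPM. Within GABAergic-like neurons *Sox2* was detected in 48.6% of the 543 cells with a *Sox2ot* UMI (44.3% to 52.9%) and 18.6% of the 236 without (13.9% to 24.2%), at median depths of 6757 and 6316 UMIs. The correlation of the pair over the 21 clusters was 0.60. The genes most like *Sox2ot* over these clusters were *Nrip1* (0.84), *Tmem47* (0.80), *Tdrkh* (0.78), *Dcbld2* (0.78) and *Yju2* (0.78).

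Among APs and choroid plexus-like cells, *Rmst* was highest near the midline and low in the subpallium. In septal explants it was 262 CPM (252 to 272) in 746 septal AP-like cells and 235 CPM (223 to 246) in 382 hem-like cells, against 95.1 CPM in pallial AP-like, 54.1 CPM in subpallial AP-like and 31.2 CPM in 556 APs without a region. In the vesicle it was 1478 CPM (1443 to 1513) in 314 choroid plexus-like cells, 860 CPM (847 to 874) in 796 septal AP-like and 741 CPM (729 to 753) in 853 hem-like cells. There it was 311 CPM in pallial AP-like, 45.5 CPM in subpallial AP-like and 26.6 CPM in VP AP-like cells. Septal AP-like cells exceeded subpallial AP-like cells 4.84-fold (4.47 to 5.26) in septal explants and 18.9-fold (18.0 to 19.8) in the vesicle. Septal AP-like cells exceeded pallial AP-like cells 2.76-fold in each library (2.57 to 2.95 and 2.69 to 2.84). Not every septal AP-like cluster shared this excess over the pallial AP-like class. In the vesicle 393 of these cells held 271 CPM (261 to 281), and in septal explants 64 held 38.7 CPM, both below the pallial AP-like level.

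Septal AP-like and hem-like cells carried 30.8% and 17.3% of the *Rmst* UMIs of septal explants, and 28.1% and 25.7% in the vesicle. Thinned shares of cells with a UMI were 71.2% of septal AP-like and 79.5% of hem-like cells in septal explants, and 73.6%, 78.1% and 95.2% of septal AP-like, hem-like and choroid plexus-like cells in the vesicle. The references were 7.69% of 44 septal mesenchyme-like cells, 23.1% of 26 septal erythroid-like cells, 3.49% of vesicle mesenchyme-like, 2.24% of vesicle erythroid-like, 7.27% of macrophage-like and 14.3% of endothelial-like cells. Subpallial AP-like cells stood at 27.6% and 8.78%. The septal share was near that of its few erythroid-like cells, which held 49.4 CPM. The vesicle share lay within the range of the reference, and its 45.5 CPM lay below the 75.3 CPM of macrophage-like and 75.4 CPM of endothelial-like cells.

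Levels varied within the septal class. In septal explants the 274 cells led by *Fgf8*, the signal of the rostral midline, held 492 CPM, the highest of 16 AP clusters (median 74.7 CPM), and the other septal AP-like clusters held 38.7 to 228 CPM. In the vesicle the 403 cells led by *Fgf17* and *Fgf8* held 1601 CPM and the other septal AP-like cluster 271 CPM. In the septal subpallial class, 231 cells led by *Nkx2-1* and *Epcam* held 150 CPM and the other 3 clusters 23.6 to 36.1 CPM. The subpallial-to-pallial log2 ratio of *Rmst* was -0.81 (-0.95 to -0.68) with that cluster and -1.63 without it, a setting added after its level was seen, and it ran from -1.83 to -0.55 over all settings. In the vesicle the log2 ratio was -2.77 (-2.85 to -2.70).

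**Figure D4:**
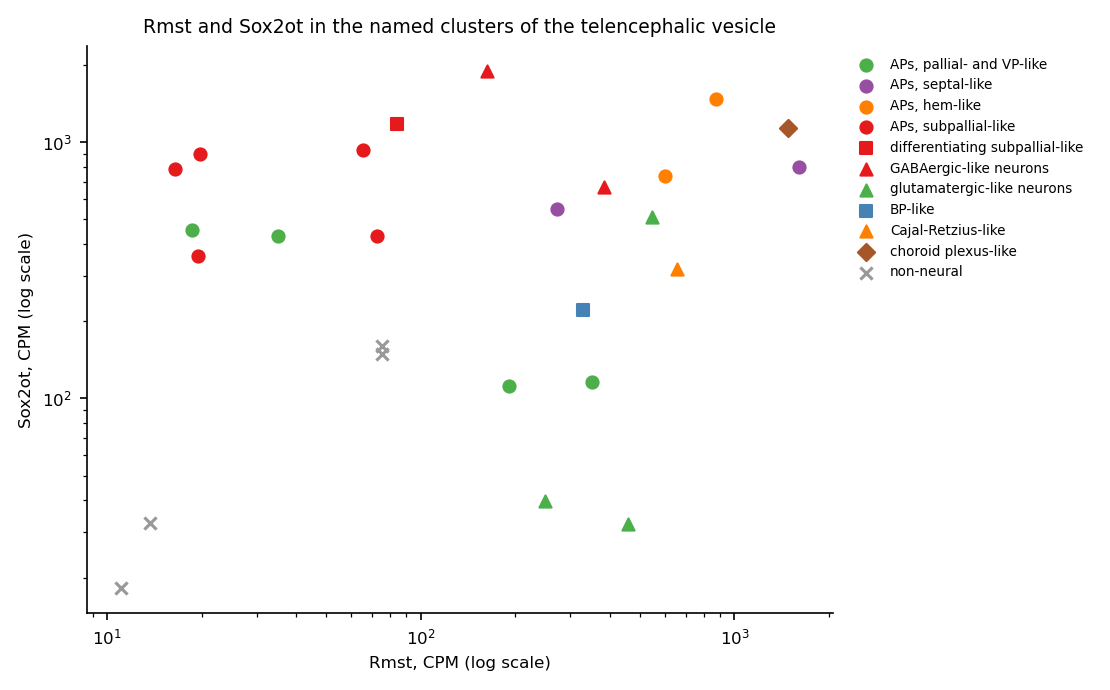
*Rmst* (horizontal axis) and *Sox2ot* (vertical axis), both in CPM on log axes, in each named cluster of the telencephalic vesicle; colour and shape give the class. Subpallial AP-like clusters sit at the left, with *Rmst* at most 72.7 CPM, and the *Fgf17*/*Fgf8*-led septal AP-like cluster at the far right at 1601 CPM.

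*Rmst* differed little between progenitors and neurons when all regions were summed. It was 99.7 CPM in septal neurons and 126 CPM in APs, a log2 ratio of -0.34 (-0.42 to -0.25), and 371 and 337 CPM in the vesicle, a log2 ratio of 0.14 (0.10 to 0.18). Neuron types differed more: glutamatergic-like neurons held 111 CPM and GABAergic-like neurons 27.2 CPM in septal explants, a log2 ratio of -2.03 (-2.46 to -1.63). In the vesicle these were 395 and 258 CPM, a log2 ratio of -0.62 (-0.71 to -0.53). Cajal-Retzius-like cells, early neurons that express *Trp73* and arise at the hem and septum, held 118 CPM in septal explants, 1.06-fold the glutamatergic-like level (0.93 to 1.21), and 654 CPM in the vesicle, 1.65-fold (1.54 to 1.77). Along the septal order *Rmst* went from 390 CPM in the first bin to 119 CPM in the last in septal explants. In the vesicle it went from 962 CPM through 1328 CPM in the sixth bin to 435 CPM. In the subpallial order of the vesicle it instead went from 31.4 to 376 CPM.

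*Rmst* is known as a partner of SOX2. In septal AP-like cells *Sox2* was detected in 86.2% of the 622 cells with an *Rmst* UMI and 87.1% of the 124 without in septal explants, and in 93.1% of 713 and 91.6% of 83 in the vesicle, and these intervals overlapped. Hem-like cells gave 91.6% of 358 and 79.2% of 24 in septal explants, where the intervals overlapped. In the vesicle they gave 95.9% of 788 (94.3% to 97.2%) and 83.1% of 65 (71.7% to 91.2%). Median depths of these vesicle cells were 13868.5 and 9287 UMIs, and the part of depth was not tested. Over clusters *Sox2* correlated with *Rmst* at -0.20 in septal explants (27 clusters) and -0.45 in the vesicle (21 clusters). Binding to the SOX2 protein was not measured. *Draxin*, a midline axon guidance gene, had the vesicle pattern most like *Rmst* (r = 0.90), followed by *Acer2* (0.89), *C77080* (0.89), *Tmem176a* (0.87) and *Ooep* (0.86). In septal explants these were *Ooep* (0.83), *Tpcn1* (0.82), *Nkd1* (0.81), *Nxn* (0.80) and *Acer2* (0.79). *Ooep* and *Acer2* stood in both lists.

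*Miat* was highest in cells between progenitor and neuron. BP-like cells, which express *Eomes* and *Neurog2*, held 156 CPM (146 to 167; 453 cells) in septal explants and 425 CPM (408 to 443; 545 cells) in the vesicle, the highest of the named classes in each. Differentiating subpallial-like cells came next at 136 CPM (122 to 150) and 313 CPM (298 to 328). APs held 21.8 and 75.4 CPM, and neurons 59.9 and 167 CPM. BP-like cells exceeded all APs 7.16-fold (6.55 to 7.82) and 5.64-fold (5.39 to 5.90), and glutamatergic-like neurons 2.74-fold (2.44 to 3.08) and 2.52-fold (2.35 to 2.70). Differentiating subpallial-like cells exceeded subpallial AP-like cells 5.01-fold (4.33 to 5.80) and 3.88-fold (3.66 to 4.12), and GABAergic-like neurons 1.77-fold (1.46 to 2.16) and 1.97-fold (1.82 to 2.13).

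BP-like cells were 8.41% of the septal cells and carried 26.2% of the *Miat* UMIs; in the vesicle they were 4.64% of the cells and carried 14.3%. A *Miat* UMI was seen in 67.1% and 69.0% of thinned BP-like cells, 15.5% and 17.6% of thinned APs and 34.4% and 39.9% of thinned neurons. Thinned erythroid-like cells stood at 12% (of 26 cells) and 1.68%, and mesenchyme-like cells at 2.56% and 1.23%, while vesicle macrophage-like and endothelial-like cells stood at 3.64% and 14.3%. The septal AP level, 21.8 CPM, was near the 12.3 CPM (5.65 to 23.4) of erythroid-like cells. Choroid plexus-like cells, also neuroepithelial in origin, held 11.2 CPM.

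Ordered along differentiation over all neural cells, *Miat* was 13 CPM in the first septal bin, 147 CPM in the eighth and 49.9 CPM in the last. In the vesicle these were 36.3, 319 and 142 CPM. The highest level lay in the eighth of the 10 bins in both libraries. The subpallial order, which holds no BP-like cells, had its highest levels at 130 CPM in the ninth septal bin and 313 CPM in the eighth vesicle bin. In the pallial order, where BP-like cells were left out too, the highest level was 65.2 CPM and 146 CPM, both in the eighth bin.

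**Figure D5:**
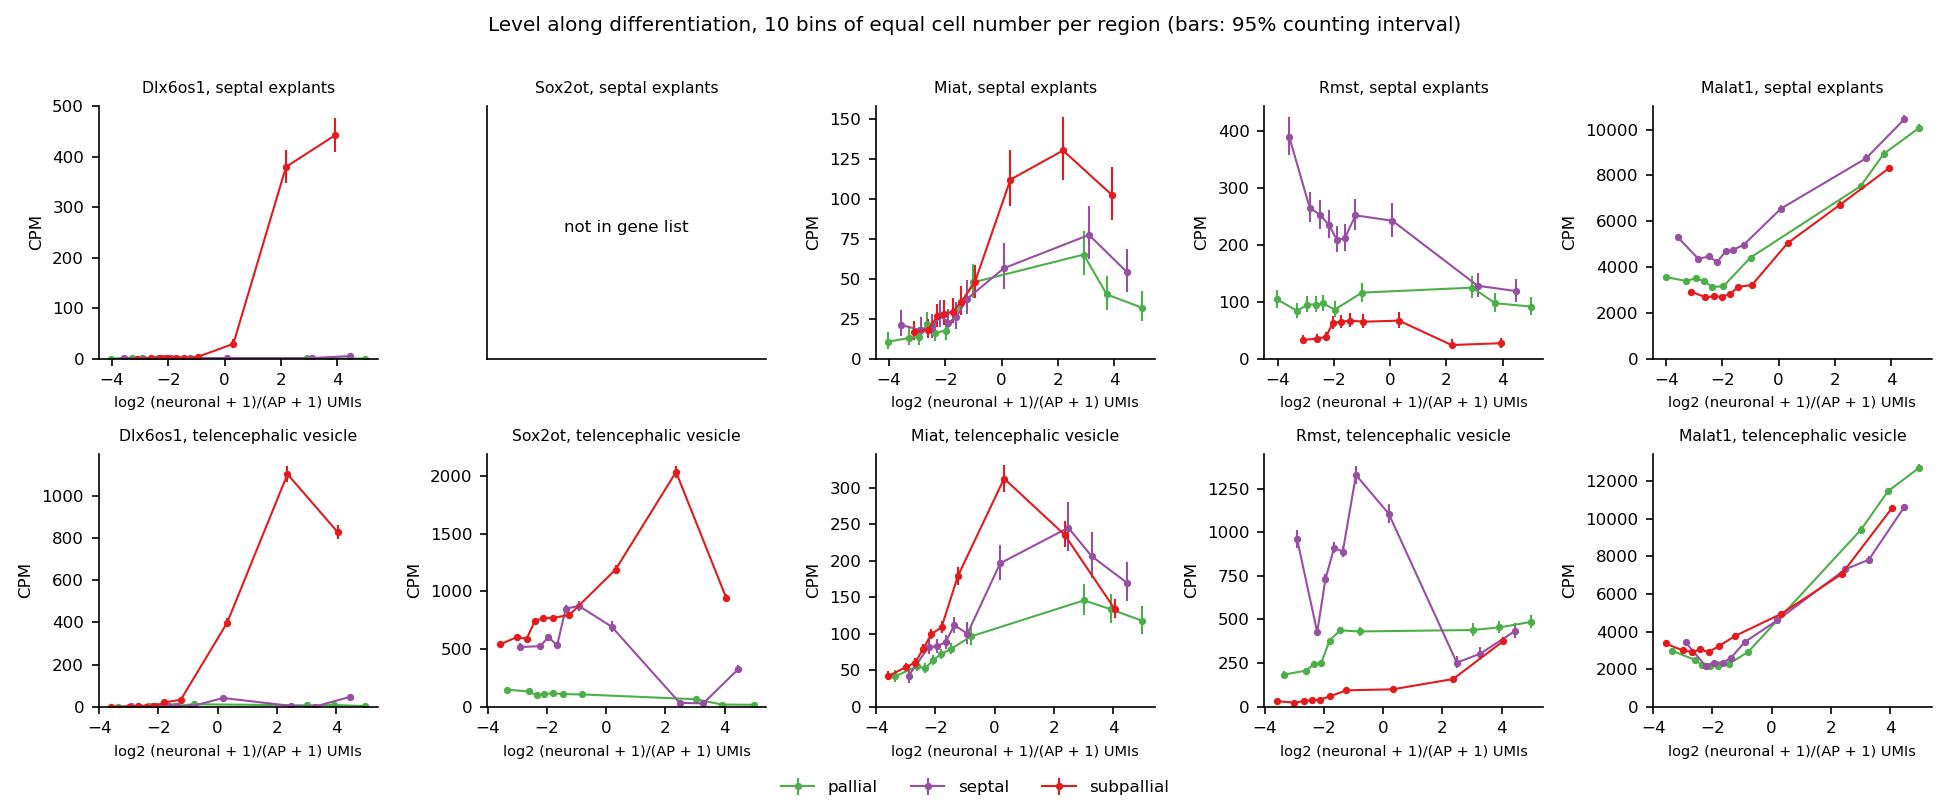
Level of each lncRNA in CPM (vertical axis) along differentiation (horizontal axis, log2 of neuronal over AP marker UMIs, each plus 1), in 10 bins of equal cell number for pallial, septal and subpallial cells without BP-like cells; bars are 95% counting intervals, top row septal explants, bottom row telencephalic vesicle. Subpallial *Dlx6os1* reached 443 and 1102 CPM late in the order, *Miat* was highest in middle to late bins, and *Malat1* was highest in the last bin of each order.

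The neuron to AP log2 ratio of *Miat* was 1.46 (1.33 to 1.60) in septal explants and 1.15 (1.08 to 1.21) in the vesicle. Neuron types were close: GABAergic-like over glutamatergic-like neurons gave 0.43 (0.15 to 0.70) in septal explants, and -0.09 in the vesicle with an interval that spanned 0 (-0.21 to 0.04). Subpallial-like over pallial-like APs gave 0.74 (0.49 to 1.0) and 0.28 (0.20 to 0.37). *Celf3*, a splicing factor known to bind *Miat*, had log2 ratios of neurons over APs of 4.93 and 4.14. *Qk*, another binding protein, had -2.08 and -1.48, and *Sf1* -0.35 and -0.59. Over clusters *Celf3* correlated with *Miat* at 0.78 in septal explants (27 clusters) and 0.74 in the vesicle (21 clusters). *Qk* correlated with *Miat* at -0.68 and -0.40, and *Sf1* at -0.04 and -0.18. The correlation of *Celf3* was not particular to *Miat*, since with *Malat1* it was 0.84 and 0.95. The patterns most like *Miat* were *Numbl* (0.95), *Plk3* (0.95), *Mfng* (0.94), *Rnf165* (0.92) and *Btbd17* (0.91) in septal explants. In the vesicle they were *Gm26953* (0.96), *Ppp1r10* (0.94), *Srrm4* (0.93), *Rnf165* (0.93) and *Sdccag8* (0.91). *Gm26953* is the lncRNA that overlaps *Miat* on the other strand, and *Srrm4* encodes a neuronal splicing regulator.

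*Malat1* was found in nearly every cell and was higher in neurons. A UMI was seen in 99.3% of septal and 96.6% of vesicle cells, and 373 of the 396 vesicle cells without one lay in the unnamed clusters. Neurons held 9521 CPM in septal explants and APs 3611 CPM, a log2 ratio of 1.40 (1.39 to 1.41). In the vesicle they held 9299 and 2883 CPM, a log2 ratio of 1.69 (1.68 to 1.70). As a share of a cell's own UMIs, the median was 0.891% in septal neurons (10th to 90th percentile of cells, 0.451% to 1.59%) and 0.325% in septal APs (0.154% to 0.672%). It was 0.842% (0.328% to 1.60%) and 0.307% (0.126% to 0.587%) in the vesicle. Cells of the 2 kinds thus overlapped.

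The level stood in between in BP-like cells, 5373 CPM in septal explants and 4970 CPM in the vesicle, 1.49-fold (1.47 to 1.51) and 1.72-fold (1.70 to 1.74) above APs. Glutamatergic-like neurons exceeded BP-like cells 1.63-fold (1.61 to 1.65) and 2.0-fold (1.98 to 2.03). Over all neural cells *Malat1* was 3935 CPM in the first septal bin, 3331 CPM in the fourth and 10267 CPM in the last. In the vesicle it was 3465, 2612 in the fifth bin, and 11108 CPM. The lowest level thus lay in a middle AP bin and the highest in the most neuronal bin.

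Among neuron classes the order of *Malat1* differed between the libraries. Cajal-Retzius-like cells were highest in septal explants at 13098 CPM, 1.5-fold the glutamatergic-like level. In the vesicle they held 8003 CPM, 0.803-fold (0.788 to 0.818), and pallial glutamatergic-like neurons were highest at 11245 CPM. GABAergic-like over glutamatergic-like neurons gave -0.16 (-0.19 to -0.14) and -0.17 (-0.19 to -0.15). Subpallial-like over pallial-like APs gave -0.25 (-0.27 to -0.23) in septal explants and 0.39 (0.37 to 0.40) in the vesicle, and 0.00052 in the vesicle when each cell had equal weight. Among AP clusters the *Fgf8*-led septal cluster was highest at 6305 CPM in septal explants, where the lowest was 2082 CPM.

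Depth moved with *Malat1*. APs were deeper than neurons, with medians of 14355.5 and 11497 UMIs in septal explants and 11020.5 and 6807.5 in the vesicle. In 4 depth groups of equal cell number, *Malat1* of septal APs ran from 4466 CPM in the shallowest to 3336 CPM in the deepest, and that of neurons from 10111 to 8746 CPM. Vesicle APs ran between 2385 and 4081 CPM over these groups and neurons between 7419 and 10240 CPM. The lowest neuron group thus lay above the highest AP group in both libraries. The deepest vesicle AP group had a median of 39067 UMIs, and its part in the AP level was not tested.

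*Srsf2*, an SR splicing factor, was lower in neurons than in APs, with log2 ratios of -0.74 (-0.77 to -0.71) and -0.77 (-0.81 to -0.73). Over clusters it correlated with *Malat1* at -0.93 and -0.96. *Srsf1* correlated with it at -0.89 and -0.92 and *Srsf3* at -0.62 and -0.86. As log2 ratios of neurons over APs, *Srsf1* gave -0.58 and -0.76 and *Srsf3* -0.41 and -0.39. Genomic neighbours of *Malat1* had smaller ratios: *Neat1*, the paraspeckle lncRNA, gave 0.40 (-0.32 to 1.08) and -0.37 (-0.96 to 0.17). *Frmd8* gave -0.03 (-0.28 to 0.23) and -0.74 (-1.04 to -0.45). The patterns most like *Malat1* were *Ubxn6* (0.94), *Chd9* (0.93), *Aff4* (0.92), *Yipf3* (0.92) and *Pcgf3* (0.91) in septal explants, and *Kidins220* (0.98), *Tspyl4* (0.98), *4930402H24Rik* (0.97), *Rufy3* (0.97) and *Cpeb4* (0.97) in the vesicle.

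The reporter tdTomato marks cells of the *Dbx1* lineage in the E12.5 part of the septal pool, and a cell without a UMI of it may come from either genotype. Over APs with (217 cells) and without it (3105 cells), *Rmst* was 146 CPM (134 to 159) and 124 CPM (121 to 127), *Miat* 23.1 and 21.7 CPM, and *Malat1* 3600 and 3612 CPM. In septal AP-like cells alone *Rmst* was 282 CPM (248 to 318) with tdTomato and 260 CPM (250 to 270) without. The order was opposite in glutamatergic-like neurons, 86.5 CPM (67.8 to 109) and 114 CPM (107 to 123). It was also opposite in Cajal-Retzius-like cells, 96.0 and 121 CPM, but not in GABAergic-like neurons, 58.7 and 25.8 CPM. The intervals overlapped in each of these classes. *Dlx6os1* was 29.6 CPM (21.0 to 40.7) in 89 neurons with tdTomato and 81.9 CPM (76.6 to 87.4) in 905 without. The mix of neuron types moved with this difference: 57 of the 89 and 555 of the 905 were glutamatergic-like, 25 and 190 Cajal-Retzius-like, and 7 and 160 GABAergic-like. All 38 UMIs of the neurons with tdTomato lay in the 7 GABAergic-like cells, at 446 CPM (316 to 612), against 490 CPM (458 to 523) in the 160 without, and these intervals overlapped. The 0 UMIs of the other 2 classes have intervals up to 4.37 CPM in the glutamatergic-like and 10.4 CPM in the Cajal-Retzius-like cells with tdTomato. Age and genotype cannot be told apart here.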

How the data were processed

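Sparse matrices of UMI counts per gene and barcode were deposited by the authors for 2 libraries, with their barcode and gene lists, made with Cell Ranger 2.1.1 (septal explants; mm10 plus both reporter genes) and Cell Ranger 7.1.0 (telencephalic vesicle; mm10), versions per the labels. The counts were not normalised by the authors. The septal matrix held 5827 barcodes (83103280 UMIs, median 12722 per barcode) and the vesicle matrix 14283 (194821794 UMIs, median 8503). The lncRNAs, the comparisons and all gene lists were chosen with earlier results of these data known.

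Following the study's methods, barcodes more than 3 scaled median absolute deviations from the median mitochondrial share (383 and 1812) and Scrublet doublets (60 and 713; 1.10% and 5.72%) were removed. Each library was clustered on its own with scanpy 1.11.5 (Python 3.11.15; 2000 variable genes, 30 components, 15 neighbours, Leiden resolution 1.5, igraph 0.11.9), without the 5 lncRNAs, their neighbours, 102 cell cycle genes, reporters and sex-linked genes. A cluster took a name with at least 3 markers at 1.5-fold or more over the other clusters and in at least 5% of cells. The limits on the differentiation order (below 2 for BPs, at or above 2 for neurons, above -1 for differentiating cells), the need for *Trp73* in Cajal-Retzius-like cells, and the loss of a regional name to one with at least 2 leading markers and more than its own were set after the clusters were seen. The order was the log2 ratio of 11 neuronal to 9 AP genes, each sum plus 1.

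Levels are summed UMIs per 1000000 (CPM) in a class. Intervals (95%) are exact Poisson for a sum, exact conditional binomial for a ratio and Clopper-Pearson for a share (scipy 1.17.1), cover counting error only, and were checked on simulated data. No p-value was computed, since each condition had 1 library. Background counts used genes with at least 50 UMIs and a fold of 2. Besides the 5 lncRNAs, the genes named are their listed neighbours and partners (1 neighbour is not reported here), the 6 listed lncRNAs per library with the largest neuron to AP ratio, the leading genes of clusters, and the 5 genes per lncRNA with the highest Pearson correlation of log2(CPM + 1) over neural clusters, among genes with at least 500 UMIs. Beyond the 3 comparisons drawn as log2 ratios, the pairs of classes and clusters set against each other by fold were chosen after their levels were seen. Alternatives were all barcodes, doublets kept, Leiden resolution 0.8, another seed, equal weight per cell, the lncRNAs kept in clustering, thinned cells, at least 2 UMIs and 5 bins; leaving out the *Nkx2-1*-led AP cluster was added after the data were seen. No genome sequence was used, and sequences are those of the annotation's transcripts.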

Additional observations from a re-analysis of the deposited data

Results flagged for a closer look

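The neuron to AP ratio of *Rmst* had opposite signs in the libraries, with a log2 ratio of -0.34 in septal explants and 0.14 in the telencephalic vesicle. Every counting interval excluded 0, and both values lay under 2-fold. The subpallial to pallial AP ratio of *Malat1* also had opposite signs, -0.25 in septal explants and 0.39 in the vesicle. Neither difference between the libraries was tested, since each is a single library. The libraries differed in kit, Cell Ranger version, dissection and age, the gene lists held *Rmst* under different identifiers, and these cannot be told apart.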

How the results depend on the processing

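No paired analysis was possible because each group is 1 library, and for the same reason no replicate could be left out. Of the 27 log2 ratios, those of at least 1 in size kept their sign under every alternative run. Of the smaller ones, *Sox2ot* neurons over APs (vesicle) changed sign under 4 alternatives, and 3 others under 1 each: *Dlx6os1* subpallial over pallial APs (septal, -0.12 with all barcodes), *Miat* (septal) and *Malat1* (vesicle) GABAergic over glutamatergic neurons. Their values moved beyond the counting interval in 14 (all barcodes), 16 (doublets kept), 20 (Leiden resolution 0.8), 21 (another seed), 13 (equal weight per cell) and 18 cases (lncRNAs kept in clustering). The cause was not tested. Of 777 class levels recomputed, 381 stayed within their interval, 396 moved, and 94 moved by over 1.5-fold. With another seed Scrublet called 7 septal doublets (0.129%), so that doublets were in effect kept there. Shares of cells stayed within their interval in 44 of the thinned classes and 39 of those counted from 2 UMIs, and moved in 88 and 93. Values outside the counting interval follow, as log2 ratios. With all barcodes, neurons over APs gave 1.38 for *Malat1* in septal explants, and 5.53 for *Dlx6os1*, -0.23 for *Sox2ot*, 0.90 for *Miat* and 1.52 for *Malat1* in the vesicle. With all barcodes, GABAergic-like over glutamatergic-like neurons gave -0.23 for *Malat1* in septal explants, and 5.19 for *Dlx6os1*, 2.33 for *Sox2ot*, -0.34 for *Rmst* and 0.022 for *Malat1* in the vesicle. With all barcodes, subpallial-like over pallial-like APs gave -0.036 for *Malat1* in septal explants, and 0.48 for *Dlx6os1*, 2.49 for *Sox2ot* and 0.36 for *Malat1* in the vesicle. With doublets kept, neurons over APs gave 4.38 for *Dlx6os1* and 1.37 for *Malat1* in septal explants, and 5.83 for *Dlx6os1*, 0.93 for *Miat*, 0.23 for *Rmst* and 1.51 for *Malat1* in the vesicle. With doublets kept, GABAergic-like over glutamatergic-like neurons gave -0.23 for *Malat1* in septal explants, and 5.62 for *Dlx6os1*, 2.28 for *Sox2ot* and -0.76 for *Rmst* in the vesicle. With doublets kept, subpallial-like over pallial-like APs gave 3.11 for *Dlx6os1*, -0.55 for *Rmst* and -0.15 for *Malat1* in septal explants, and 2.49 for *Sox2ot*, -2.45 for *Rmst* and 0.41 for *Malat1* in the vesicle. At Leiden resolution 0.8, neurons over APs gave 4.87 for *Dlx6os1*, 1.64 for *Miat*, -0.20 for *Rmst* and 1.47 for *Malat1* in septal explants, and -0.38 for *Sox2ot*, 1.04 for *Miat*, 0.32 for *Rmst* and 1.79 for *Malat1* in the vesicle. At Leiden resolution 0.8, GABAergic-like over glutamatergic-like neurons gave -0.077 for *Miat* and -0.26 for *Malat1* in septal explants, and 7.47 for *Dlx6os1*, 5.0 for *Sox2ot*, -0.23 for *Rmst* and -0.059 for *Malat1* in the vesicle. At Leiden resolution 0.8, subpallial-like over pallial-like APs gave 3.54 for *Dlx6os1* and -0.40 for *Malat1* in septal explants, and 0.86 for *Dlx6os1*, 2.34 for *Sox2ot*, -2.62 for *Rmst* and 0.42 for *Malat1* in the vesicle. With another seed, neurons over APs gave 4.30 for *Dlx6os1*, 1.60 for *Miat* and 1.31 for *Malat1* in septal explants, and 5.99 for *Dlx6os1*, -0.42 for *Sox2ot*, 1.05 for *Miat*, 0.31 for *Rmst* and 1.78 for *Malat1* in the vesicle. With another seed, GABAergic-like over glutamatergic-like neurons gave 0.10 for *Miat* and -0.12 for *Malat1* in septal explants, and 3.71 for *Sox2ot*, -0.43 for *Rmst* and -0.095 for *Malat1* in the vesicle. With another seed, subpallial-like over pallial-like APs gave 3.30 for *Dlx6os1*, -1.83 for *Rmst* and -0.17 for *Malat1* in septal explants, and 1.21 for *Dlx6os1*, 2.22 for *Sox2ot*, 0.16 for *Miat*, -2.51 for *Rmst* and 0.44 for *Malat1* in the vesicle. With equal weight per cell, neurons over APs gave -0.50 for *Rmst* and 1.37 for *Malat1* in septal explants, and 7.11 for *Dlx6os1*, 0.17 for *Sox2ot*, 1.36 for *Miat* and 1.44 for *Malat1* in the vesicle. With equal weight per cell, GABAergic-like over glutamatergic-like neurons gave 4.57 for *Sox2ot* and -0.19 for *Malat1* in the vesicle. With equal weight per cell, subpallial-like over pallial-like APs gave -0.67 for *Rmst* and -0.23 for *Malat1* in septal explants, and 2.33 for *Sox2ot*, -2.65 for *Rmst* and 0.00052 for *Malat1* in the vesicle. With the lncRNAs kept in clustering, neurons over APs gave 1.96 for *Miat* and -0.016 for *Rmst* in septal explants, and 6.55 for *Dlx6os1*, -0.074 for *Sox2ot*, 1.07 for *Miat*, 0.26 for *Rmst* and 1.75 for *Malat1* in the vesicle. With the lncRNAs kept in clustering, GABAergic-like over glutamatergic-like neurons gave -2.56 for *Rmst* and -0.22 for *Malat1* in septal explants, and 7.65 for *Dlx6os1*, 5.34 for *Sox2ot*, -0.40 for *Rmst* and -0.11 for *Malat1* in the vesicle. With the lncRNAs kept in clustering, subpallial-like over pallial-like APs gave -1.27 for *Rmst* and -0.10 for *Malat1* in septal explants, and 0.78 for *Dlx6os1*, -2.64 for *Rmst* and 0.44 for *Malat1* in the vesicle. Without the *Nkx2-1*-led AP cluster (added after seeing the data), subpallial-like over pallial-like APs gave -1.63 for *Rmst* and -0.31 for *Malat1* in septal explants. With 5 bins, the last over the first bin gave -0.42 for *Rmst* and 1.32 for *Malat1* in septal explants, and -0.067 for *Sox2ot* and 1.57 for *Malat1* in the vesicle. The depth of the libraries limited *Dlx6os1* outside the subpallial lineage, where classes of septal explants held 0 to 13 UMIs.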

Other observations

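Of 64 other lncRNAs with symbols known from neural tissue, 41 were in the septal gene list and 57 in the vesicle list, and 32 and 53 had at least 50 UMIs in neurons and APs. In septal explants 9 were at least 2-fold higher in neurons, 5 at least 2-fold lower and 18 between, with a median log2 ratio of -0.10. In the vesicle these were 10, 11 and 32, with a median of -0.26. Over all genes with at least 50 UMIs, 17.4% were higher and 17% lower in septal explants, and 16.4% and 19.1% in the vesicle. Whether the lncRNA counts differ from these shares was not tested. *Lhx1os* had the largest ratio in both libraries, 6.29 and 6.60, and *Mir124a-1hg*, the host transcript of a neuronal miRNA, had 5.59 and 5.66. *Snhg11* was 3.08 and 3.32. In septal explants *Mirt1* was 6.16, *Dubr* 3.27 and *A330008L17Rik* -3.60. In the vesicle *Dlx1as*, the antisense transcript at *Dlx1*, was 4.86, while *Otx2os1* was -3.18 and *Pax6os1* -2.95.

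The lowest *Malat1* levels of both libraries lay in unnamed clusters, but another unnamed septal cluster was among the highest. These 142 cells, led by *Onecut2* and *Isl1*, held 12423 CPM, against 13098 CPM in Cajal-Retzius-like cells, with *Miat* at 148 CPM and *Rmst* at 234 CPM. Their median on the differentiation order was 3.54, above the limit of 2 for neurons, yet as unnamed cells they were not counted among the neurons. A cluster of 145 septal cells with a median of 5334 UMIs held 613 CPM of *Malat1*. In the vesicle 816 cells with a median of 1072 UMIs held 1082 CPM, and 64 cells with a median of 1125.5 UMIs, led by *Stmn2* and *Tagln3*, held 604 CPM of *Malat1* and 132 CPM of *Dlx6os1*. The 67 vesicle cells led by *Onecut2* among the septal glutamatergic-like neurons held 66.5 CPM of *Dlx6os1* and 507 CPM of *Sox2ot*, against 2.46 and 39.8 CPM in the other cluster of that class.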
